A study of Mus musculus with 2 samples.

Results

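The chaperone genes of the mouse are described here as measured in the hippocampus. They are the genes with at least 1 transcript annotated as protein coding whose symbol begins with Hspa, Hspb, Hspd, Hspe, Hsph, Hsp90, Dnaja, Dnajb, Dnajc, or Cct and a digit. This rule takes 82 of the 21901 genes with such a transcript, among 55536 annotated genes, and it uses no measured value. The symbols also bring in Hspbp1 and Hspbap1, which are named for binding heat shock proteins and are not small heat shock proteins. Tcp1, the first subunit of the CCT complex, does not match by symbol and is given with the partner genes, and Cct6a is left out because its annotated transcripts hold none of the protein coding class.

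Total RNA was taken from a layer of hippocampus of 2 males of B6CASTF1/J (an F1 hybrid with C57BL/6J and CAST/EiJ parents), adults of 8 to 10 months, with 1 library per animal. Replicate 1 came from animal 2 and replicate 2 from animal 4, both started from 300 ng of RNA, and the labels name no treatment, so the data form 1 group with no contrast of conditions. Both samples carry 1 donor entry in the labels, beside the different animal numbers. The libraries held 23408838 and 29512441 expected counts on annotated genes. All 10 markers of hippocampal neurons used for the tissue check were detected in both libraries, from Prox1 with 37.34 and 28.79 TPM to Camk2a with 1524 and 1469 TPM. The libraries stand apart in one respect: all 9 markers of the choroid plexus were higher in replicate 2, among them Ttr with 8.68 TPM in replicate 1 and 1703 TPM in replicate 2. All 14 immediate early genes and all 5 blood genes were lower in replicate 2, and these values are given again with the comparison of the libraries.

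Chaperones bind unfolded or partly folded proteins and help them to fold, to be carried across membranes, or to be handed on for degradation. Hsp70 proteins work in cycles of ATP binding and release that J-domain proteins (the DNAJ families) start and that nucleotide exchange factors, such as the Hsp110 proteins, complete, while Hsp90 receives late folding intermediates and the ring-shaped CCT complex folds actin and tubulin. Some of these genes are transcribed at all times, some are switched on by heat shock factor 1 (Hsf1) when cytosolic proteins misfold, and some are switched on by the unfolded protein response of the endoplasmic reticulum (ER). In neurons the constitutive members also have a role in synaptic vesicle recycling, in which the J-domain proteins auxilin and cysteine string protein recruit Hsc70.

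Members were set in 3 lists from textbook knowledge of their regulation, with earlier results of these data known. The heat-induced list holds 9 members (Hspa1a, Hspa1b, Hsp90aa1, Hsph1, Hspb1, Hspb8, Dnajb1, Dnaja1 and Dnajb4), the ER-stress-induced list 6 (Hspa5, Hsp90b1, Dnajb9, Dnajb11, Dnajc3 and Dnajc10) and the constitutive list 26. The other 41 members are on no list. The list names reflect this choice, and a place on the constitutive list does not mean that stress leaves a gene unchanged. The labels name no stress for either animal.

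Promoter sequences of 5 induced members are shown first, because such genes are known to be induced through elements in their promoters, with that of Hspe1, a constitutive member with the longest run of heat shock units printed here. The windows are from RefSeq on GRCm38.p6 (mm10) and reach from 250 bases before each annotated start site to 50 after it. They cover 67 of the 82 members and 27025 genes in all. The heat shock element was searched on both strands as contiguous 5-base units, NGAAN and NTTCN in alternation, and the ER stress element as CCAAT, 9 bases of any kind and CCACG. Capitals below mark the matches: 2 units of the heat shock element in Hspa1a and Hspb1, 3 units or more in Hspe1, and the ER stress element in the others. Hspa1a lies at chr17:34972157-34972406 on the minus strand, Hspb1 at chr5:135887669-135887918 on the plus strand and Dnajc3 at chr14:118937682-118937931 on the plus strand. These 3 are shown whole, up to the start site. The stretches of Hsp90b1 (chr10:86705510-86705694, minus strand), Hspa5 (chr2:34772020-34772048, plus strand) and Hspe1 (chr1:55088053-55088082, plus strand) were shortened where annotated exons overlap the window.
Hspa1a: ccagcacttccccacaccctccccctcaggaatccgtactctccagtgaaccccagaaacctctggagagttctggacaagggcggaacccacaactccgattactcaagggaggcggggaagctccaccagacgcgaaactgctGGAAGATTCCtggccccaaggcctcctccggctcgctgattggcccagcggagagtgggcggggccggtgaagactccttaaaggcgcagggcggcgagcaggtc
Hspb1: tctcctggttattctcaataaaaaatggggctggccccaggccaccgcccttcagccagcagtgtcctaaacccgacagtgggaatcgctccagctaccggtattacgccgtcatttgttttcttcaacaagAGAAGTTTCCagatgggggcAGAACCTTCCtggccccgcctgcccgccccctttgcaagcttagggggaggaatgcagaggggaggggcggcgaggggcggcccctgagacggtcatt
Hspe1: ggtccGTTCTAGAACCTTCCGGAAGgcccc
Hspa5: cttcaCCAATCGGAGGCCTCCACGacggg
Hsp90b1: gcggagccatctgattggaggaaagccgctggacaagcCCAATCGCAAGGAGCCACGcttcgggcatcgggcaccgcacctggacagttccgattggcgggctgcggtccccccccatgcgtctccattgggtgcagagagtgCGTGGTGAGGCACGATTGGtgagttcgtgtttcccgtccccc
Dnajc3: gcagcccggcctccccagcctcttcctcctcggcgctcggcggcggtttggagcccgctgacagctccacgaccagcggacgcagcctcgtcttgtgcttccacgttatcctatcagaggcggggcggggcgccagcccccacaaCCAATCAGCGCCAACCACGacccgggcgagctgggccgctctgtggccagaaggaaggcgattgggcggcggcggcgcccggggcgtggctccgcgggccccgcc

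The elements followed the lists only in part. Of the 6 ER-stress-induced members, 3 held the ER stress element (Hspa5, Dnajc3, and Hsp90b1 with 2 matches), against no other member with a window and 0.137% of all genes. In Hspa5 it began 65 bases before the start site, and in Dnajc3 105 bases before it. With 2 units, the heat shock element was in 7 of the 8 heat-induced members with a window (87.5%), in 5 of 21 constitutive members (23.8%) and in 16.9% of all genes. Dnajb1 was the heat-induced member without it. In Hspa1a and in its neighbour Hspa1b the match began 105 bases before the start site, and Hspb1 had matches that began 118 and 98 bases before it.

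With 3 contiguous units the element was rarer, and its shares in the heat-induced and constitutive lists were similar. It was in 4 of the 67 members (5.97%) against 178 of 27025 genes (0.659%). Of the 8 heat-induced members with a window, 1 held it (12.5%), Hsph1, with its match after the start site. Of the 21 constitutive members with a window, 3 held it (14.3%), Dnajb6, Hspd1 and Hspe1. Hspd1 and Hspe1, which encode mitochondrial Hsp60 and its lid Hsp10, lie on opposite strands of chromosome 1 with starts 111 bases apart. Their windows overlap, and the element printed above for Hspe1 lies in both. The 8-base cAMP response element TGACGTCA was in the window of 1 member, Dnajc27, and of 2.03% of all genes. A match shows that these letters are in the window, and Hspa8, Hsp90aa1 and Hsp90ab1 are among the 15 members without a window in the table.

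**Figure D1:**
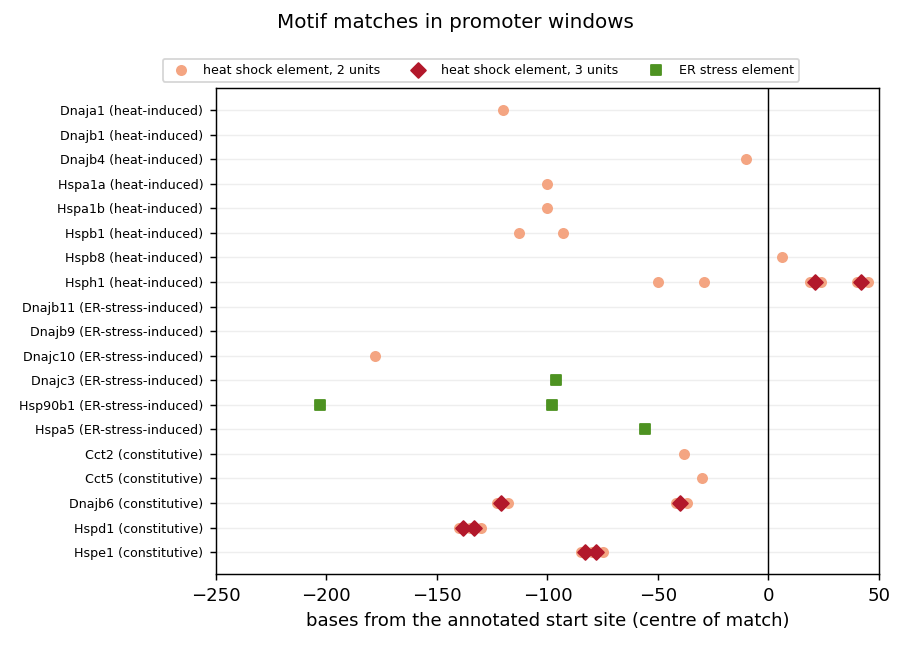
Positions of the motif matches (horizontal axis, bases from the annotated start site, with the vertical line at the start) in the promoter windows of the heat-induced and ER-stress-induced members and of the constitutive members with a match. Green squares, the ER stress element, are in 3 ER-stress-induced genes, and red diamonds, 3 units of the heat shock element, are in Hsph1, Dnajb6, Hspd1 and Hspe1.

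As a family, the members were more often detected than other genes. With detection set at 1 TPM in both libraries (TPM is a transcript's level relative to all transcripts, corrected for its length), 69 of 82 members were detected (84.1%), against 12999 of the 21901 genes with a protein coding transcript (59.4%). The detected members had a median level of 32.64 TPM, and all detected genes of that kind 17.45 TPM. The members summed to 6059 TPM in replicate 1 and 5232 TPM in replicate 2, or 1.14% and 1.02% of the TPM of all genes with a protein coding transcript. In this bulk tissue, fewer cells of a type and less RNA per cell cannot be told apart.

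**Figure D2:**
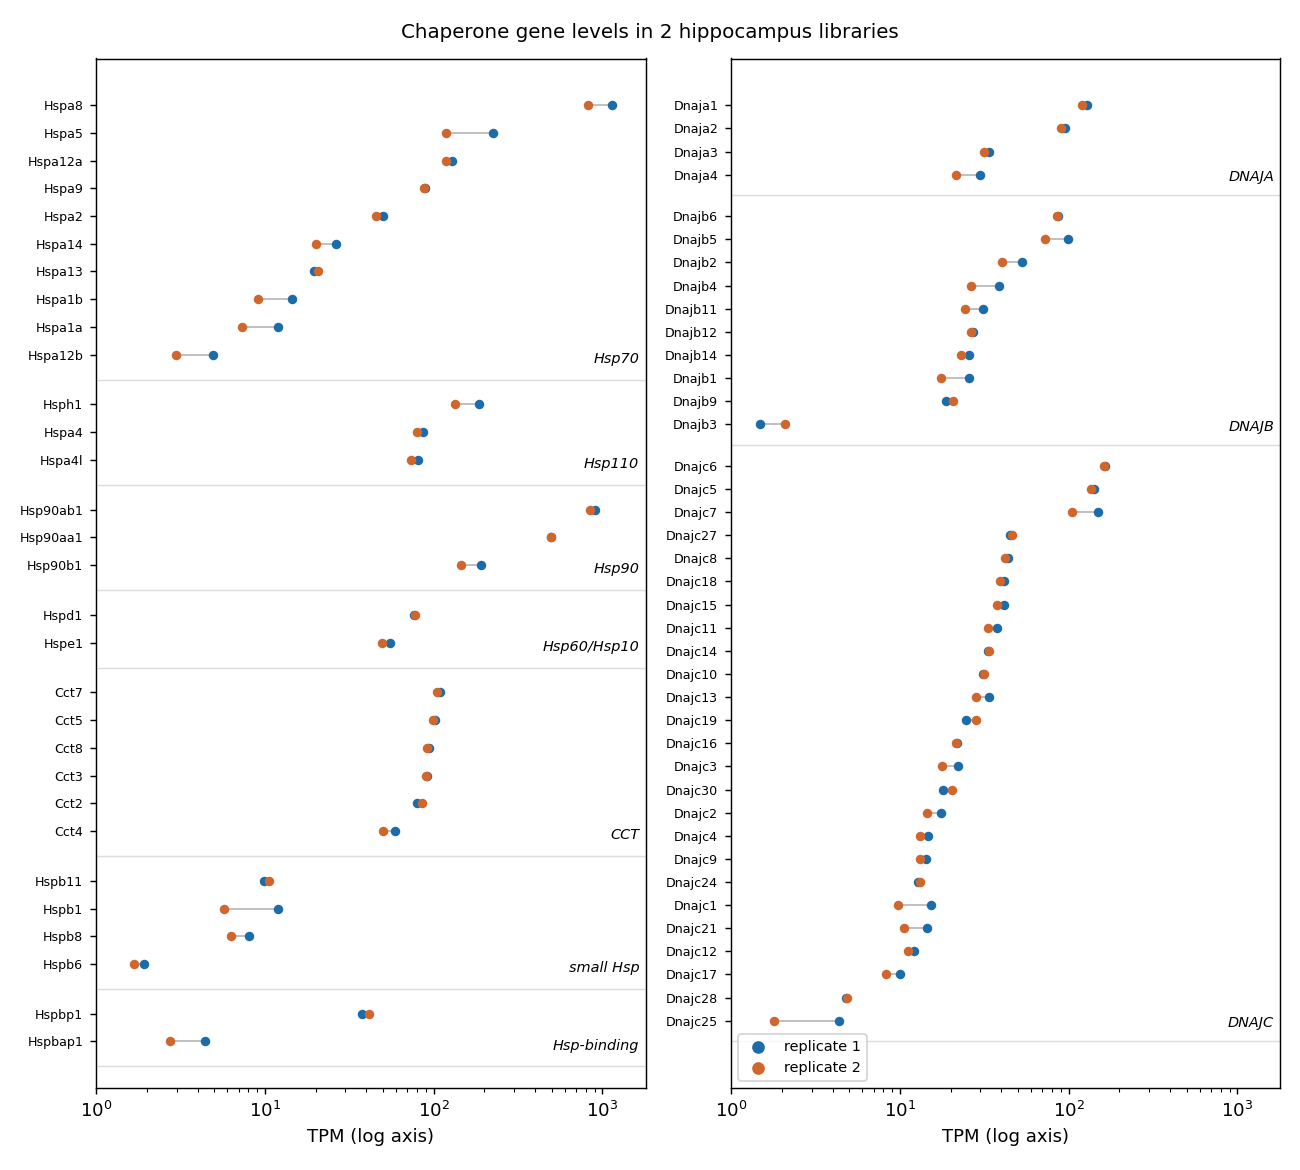
TPM (log axis) of the 69 detected members in replicate 1 (blue) and replicate 2 (orange), by family, ordered by mean level within each family. Hspa8, Hsp90ab1 and Hsp90aa1 lie to the right of all others, and for most members the points of the 2 libraries are close.

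The cytosolic Hsp70 and Hsp90 genes dominated. Hspa8, which encodes the constitutive Hsc70 (ENSMUSG00000015656.17, chr9:40800984-40810087), stood at 1137 TPM in replicate 1 and 821.7 TPM in replicate 2, a mean of 979 ± 223 TPM (SD, n = 2). Hsp90ab1, the constitutive cytosolic Hsp90 (chr17:45567775-45573271), stood at 902.5 and 847.9 TPM. Hsp90aa1, its heat-inducible paralog (chr12:110690605-110702728), stood at 498 and 496.8 TPM. These 3 genes took 41.9% and 41.4% of all member TPM, and by mean level they ranked 25, 33 and 76 among genes with a protein coding transcript. The rank of Hspa8 was 14 in replicate 1 and 38 in replicate 2. The order of Hspa8 and Hsp90ab1 was not the same in the 2 libraries, with a ratio of 1.26 in replicate 1 and 0.969 in replicate 2. Hsp90ab1 was above Hsp90aa1 in both, 1.81-fold and 1.71-fold.

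Within the Hsp70 family, the levels ran over 3 compartments. Hspa5, or BiP, the Hsp70 of the ER, was at 225.8 TPM in replicate 1 and 117.6 TPM in replicate 2. Hspa9, or mortalin, the Hsp70 of mitochondria, was at 89.01 and 87.64 TPM. Hspa12a, a distant relative, was at 128.9 and 117.6 TPM, and its order relative to Hspa5 does not go beyond the spread between libraries. Hspa2, known from the testis, was at 50.16 and 45.64 TPM here. The stress-induced twins were far below: Hspa1a was at 11.92 and 7.31 TPM, and Hspa1b at 14.47 and 9.10 TPM. Hspa8 was thus 95.4-fold and 112-fold above Hspa1a, and 143-fold and 182-fold by the second quantifier. Hspa1l, which lies head to head with Hspa1a on chromosome 17 with starts 547 bases apart and is known from the testis, was at 0.22 and 0.23 TPM and was the lowest of its family.

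Part of these levels depends on how reads were shared among near-identical copies. Of the 31-base words of Hspa1a, 63.8% also occur in Hspa1b, so their separate levels are uncertain. Of the words of Hspa8, 68.9% occur in Gm15459, a processed pseudogene on chromosome 5 that was itself assigned 287.1 TPM in replicate 1 and 249.3 TPM in replicate 2. That is 25.2% and 30.3% of the level of Hspa8. In all, 7 members shared over 40% of their words with other annotated genes: Hspa8, Hspa1a, Hspa1b, Hsp90aa1, Hspb1, Hspd1 and Hspe1. The split of their reads is uncertain to that extent, and they were singled out after their values were seen.

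The nucleotide exchange factors and the other Hsp90 gene came next. Hsph1, the heat-induced Hsp110 (chr5:149614287-149636376), was at 184.8 TPM in replicate 1 and 134.0 TPM in replicate 2. Its relatives Hspa4 (86.02 and 79.29 TPM) and Hspa4l (80.53 and 73.56 TPM) were lower in both libraries, and their own order does not go beyond the spread. Hsp90b1, the ER paralog of Hsp90 known as GRP94, was at 191.5 and 144.8 TPM. The 3 Hsp90 genes kept their order in both libraries with no overlap.

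The detected chaperonins were close to each other in level. The 6 detected CCT subunits that are members ranged from Cct7 at 109.3 and 104.8 TPM to Cct4 at 58.82 and 50.30 TPM, a span of 1.86-fold in replicate 1 and 2.08-fold in replicate 2. Cct5 (101.2 and 99.12 TPM), Cct8 (93.28 and 90.91 TPM), Cct3 (91.87 and 89.66 TPM) and Cct2 (79.60 and 84.83 TPM) lay between. The second quantifier did not keep the order of Cct7 and Cct5, of Cct5 and Cct8, or of Cct3 and Cct2. The testis paralog Cct6b was at 0.13 and 0.15 TPM and Cct8l1 at 0.30 and 0.03 TPM, so both were below detection. In mitochondria, Hspd1 was at 76.12 and 77.27 TPM and Hspe1 at 55.31 and 49.24 TPM, a ratio of 1.38 and 1.57.

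Small heat shock proteins hold unfolded proteins without using ATP. The members set in this class, named Hspb and a number, were low or near 0. Hspb11, placed here by its symbol and also known as the intraflagellar transport protein Ift25, was at 9.84 and 10.64 TPM. It had the highest mean of the Hspb genes, although Hspb1 was above it in replicate 1. Hspb1 (Hsp27, also known as Hsp25 in mice) was at 12.01 TPM in replicate 1 and 5.72 TPM in replicate 2, and Hspb8, a partner of Bag3, at 8.10 and 6.34 TPM. Hspb6 was at 1.92 and 1.67 TPM. Hspb2, Hspb3 and Hspb7, known from muscle and heart, stayed under 1 TPM in both libraries, and Hspb9 was listed at 0. The related Cryab, which the symbol rule does not take, was at 84.75 and 71.76 TPM, above every Hspb gene.

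J-domain proteins were the largest group. Among the 4 DNAJA genes, Dnaja1 (129.4 and 120.1 TPM) was above Dnaja2 (95.26 and 90.33 TPM), Dnaja3 of mitochondria (33.79 and 31.50 TPM) and Dnaja4 (30.07 and 21.41 TPM). Among the 13 DNAJB genes, Dnajb6 was at 86.16 and 85.82 TPM and Dnajb5 at 98.65 and 72.96 TPM, an order that was not the same in both libraries. Dnajb2 followed at 53.05 and 40.58 TPM. Dnajb1, or Hsp40, the usual partner of heat-induced Hsp70, was at 25.76 and 17.48 TPM. The lowest detected was Dnajb3 at 1.49 and 2.10 TPM, Dnajb13 was at 0.09 and 0.51 TPM, and Dnajb7 and Dnajb8 were listed at 0.

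Of the 28 DNAJC genes, Dnajc6, Dnajc5 and Dnajc7 had the highest means. Dnajc6, which encodes the neuronal auxilin that uncoats clathrin vesicles with Hsc70, was at 165.1 and 163.1 TPM. Dnajc5, the cysteine string protein of synaptic vesicles, was at 142.3 and 135.6 TPM. Dnajc7, which carries tetratricopeptide repeats that bind Hsp70 and Hsp90, was at 149.3 and 104.9 TPM, so that its place relative to Dnajc5 changed between libraries. By the second quantifier Dnajc7 was at 149.9 and 104.2 TPM, Dnajc6 at 138.9 and 127.7 TPM and Dnajc5 at 123.4 and 118.7 TPM. There Dnajc7 was the highest in replicate 1 and below both others in replicate 2. The other detected members of the class ranged from Dnajc27 at 44.78 and 46.01 TPM to Dnajc25 at 4.39 and 1.80 TPM. Dnajc22 was at 0.05 and 0.18 TPM. Dnajc5b and Dnajc5g, the paralogs of Dnajc5 known from the testis, were listed at 0 in both libraries.

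The lists of constitutive and stress-induced members differed in their median levels. Because the lists were chosen with earlier results of these data known, the difference describes the genes chosen and nothing beyond them. The constitutive list had a median of 84.32 TPM (86.09 in replicate 1 and 85.32 in replicate 2), and all 26 of its members were detected. The ER-stress-induced list had a median of 29.47 TPM (31.03 and 27.91). The heat-induced list had a median of 21.62 TPM (25.76 and 17.48). The 41 members on no list had a lower median than either, 10.24 TPM (10.07 and 9.73), so the difference holds for the genes named here as constitutive and not for all members outside the induced lists. On the log2(TPM + 1) scale the heat-induced median lay below the constitutive median by a difference of -1.91, and the ER-stress-induced median by a difference of -1.49. The heat-induced list spans from Hspb8, with a mean of 7.22 TPM, to Hsp90aa1, with a mean of 497 TPM, so it overlaps the constitutive list, which spans from Dnajb14 with 24.25 TPM to Hspa8 with 979 TPM. Within the heat-induced list, Hsp90aa1, Hsph1 and Dnaja1 were at 120.1 TPM or more in both libraries, and the other 6 were at 38.69 TPM or less. Genes of a list are not replicates, so no p is given for these differences. When TPM was taken from protein coding transcripts alone, the constitutive median was 59.69 TPM and the heat-induced difference was -1.42.

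**Figure D3:**
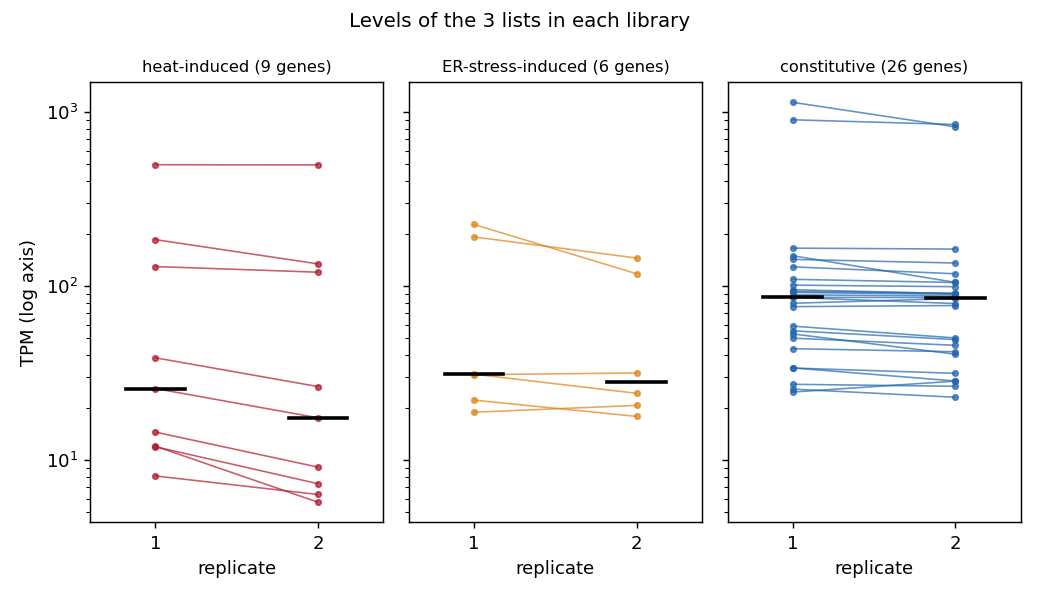
TPM (log axis) of each member of the heat-induced, ER-stress-induced and constitutive lists in replicate 1 and replicate 2, with lines joining a gene and black bars at the list medians. The constitutive median is 86.09 TPM in replicate 1 and 85.32 TPM in replicate 2, and the heat-induced median moves from 25.76 to 17.48 TPM.

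The 2 libraries were then compared gene by gene. The test was edgeR's residual deviance in a fit with an intercept alone, on expected counts rounded to whole numbers. Its p-values compare these 2 libraries and no conditions. The dispersion was estimated from the same 2 libraries, so a call marks a gene that differs by more than the trend over genes. A gene that was not called may still differ between the animals. Of the 69 members tested, 1 passed at a Benjamini-Hochberg adjusted p under 0.05, against 130 of 16123 genes tested (0.806%), which divide into 0.434% lower and 0.372% higher in replicate 2. At an unadjusted p under 0.05 there were 2 members, against 4.83% of all genes. Of the 13659 tested genes with a protein coding transcript, 76 passed and 412 were under an unadjusted p of 0.05.

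The member that passed was Hspa5 (ENSMUSG00000026864.13, chr2:34771970-34777547), which fell in replicate 2 relative to replicate 1. Its expected counts were 7705 in replicate 1 and 5415 in replicate 2 although replicate 2 was sequenced more deeply, and its log2 ratio was -0.82 (95% counting interval -0.87 to -0.77). The adjusted p was 0.0476 with edgeR, close to the threshold. Over the alternatives of this same test the adjusted p ran from 0.0017 with DESeq2's size factors and dispersion trend to 0.533 with 1 common dispersion. The call was also lost with spike-in scaling, without the filter on low counts and with the second quantifier. The second member under an unadjusted p of 0.05 was Dnajc1, an ER membrane J-domain protein, with 15.39 and 9.73 TPM and an adjusted p of 0.967 with edgeR. No other member of the ER-stress-induced list passed. Hsp90b1 had a log2 ratio of -0.22, Dnajb11 of -0.25 and Dnajc3 of -0.19, while Dnajb9 and Dnajc10 were higher in replicate 2 with 0.25 and 0.23.

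None of the 9 heat-induced members passed edgeR's test, 0 were under an unadjusted p of 0.05, and 0 passed with DESeq2's dispersion trend. By direction alone, 8 of them had a log2 ratio below 0 (88.9%). The list was chosen with earlier results of these data known and its genes are not replicates, so this count is only a description. Over all genes tested, 50.2% were below 0, over those with a protein coding transcript 45.9%, and over all 69 members tested, 46.4%. The ratios were -0.94 for Hspb1, -0.58 for Hspa1a, -0.55 for Hspa1b, -0.44 for Dnajb1, -0.37 for Dnajb4, -0.35 for Hsph1, -0.23 for Hspb8 and -0.15 for Dnaja1. The exception was Hsp90aa1 with 0.05. The median was -0.38 for the list, against 0.00 over all genes tested. Of the 9, 6 were lower in replicate 2 by 1.25-fold or more, a descriptive limit chosen after the values were seen. By that limit 18.3% of all genes tested were lower, and 1502 of the 13659 with a protein coding transcript. The reads of Hspa1a and Hspa1b can mostly come from either gene, so their ratios are not separate measurements. The expected counts behind the widest ratio were few, 136 and 87.4 for Hspb1, and its 95% counting interval ran from -1.36 to -0.56.

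The constitutive list was nearer to 0. Its median log2 ratio was 0.07, with 7 of 26 members below 0, and no member reached 1.25-fold in either direction. The extremes were Hspa8 with -0.22 and Cct2 with 0.25. Scaling by the ERCC spike-ins (synthetic RNAs added to each library) moved the median of all genes by -0.23. On that scale the constitutive median was -0.16 and 25 of 26 members were below 0, so the direction of this list is not fixed, while the heat-induced median was -0.60 with 9 of 9 below 0. No difference between the lists was tested.

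**Figure D4:**
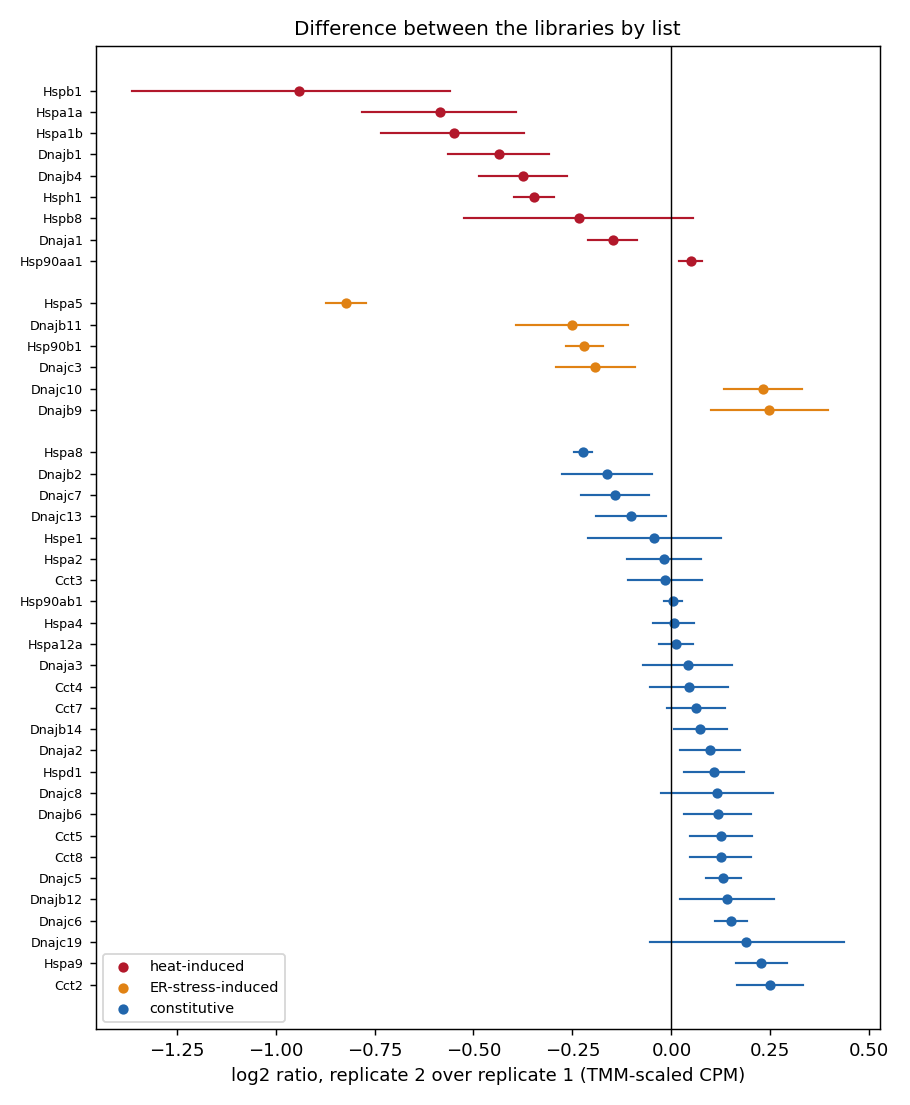
Log2 ratio of replicate 2 over replicate 1 for each listed member, with 95% counting intervals as lines and 0 as the vertical line. In the heat-induced list 8 of 9 points lie left of 0 and in the ER-stress-induced list 4 of 6, and the constitutive points run from -0.22 to 0.25.

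Other genes moved in the same comparison, and their part in these ratios was not tested. All 14 immediate early genes, which neurons switch on with activity, had lower values in replicate 2, with a median log2 ratio of -0.46 and a summed level of 388.7 TPM in replicate 1 and 250 TPM in replicate 2. Of these, Arc passed the test (82.9 and 30.8 TPM, adjusted p = 6.97e-08 with edgeR). The 5 blood genes had a median of -0.32 and summed to 465.4 and 334.1 TPM. All 9 choroid plexus markers were higher in replicate 2, with 8 called and a summed level of 17.86 and 1792 TPM, the 6 mural markers had a median of 0.46, and the 4 ependymal markers tested had a median of 0.66. Markers of hippocampal neurons (median 0.15), astrocytes (0.10), oligodendrocytes (0.17), microglia (0.21) and endothelium (0.05) were closer between the libraries, and none of them was called.

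Over all members tested, several of the extremes were members with few counts. The lowest log2 ratios were those of Hspb1, Hspa5 and Dnajc25 (-0.79, from 152 and 108 expected counts). The highest, in counts, were Hspb6 with 0.64, Dnajb3 with 0.57 and Dnajc30, a mitochondrial protein, with 0.29. Hspb6 and Dnajb3 rest on 40 counts or fewer per library, and their counting intervals include 0. In TPM, Hspb6 went the other way, with 1.92 in replicate 1 and 1.67 in replicate 2, so its direction is not fixed. Of the 69 members tested, 12 were lower by 1.25-fold or more in replicate 2, and 2 (Hspb6 and Dnajb3) were higher by as much. Of the 13659 tested genes with a protein coding transcript, the like background for members, 1502 were lower and 1332 higher by that limit. Of all genes tested, which include other gene classes and are not the like background, 18.3% were lower and 10% higher.

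The partner genes are of the same pathways without being members, and their transcript levels do not measure pathway activity. All 37 were detected, and 0 passed edgeR's test with its own dispersion trend or with that of DESeq2. Of these, 3 were under an unadjusted p of 0.05, and 19 were below a log2 ratio of 0 against 18 above it. Hsf1, the regulator of the heat shock response, was at 43.86 and 28.26 TPM (log2 ratio -0.50, adjusted p = 0.874 with edgeR), and Hsf2 at 18.83 and 14.81 TPM. The others under an unadjusted p of 0.05 were Sdf2l1, an ER protein that binds BiP complexes, with 19.77 and 7.51 TPM (adjusted p = 0.304 with edgeR), and Chordc1, an Hsp90 cochaperone, with 59.95 and 39.95 TPM (adjusted p = 0.625 with edgeR). By mean level in the gene table the highest partners were Pfdn5, a prefoldin subunit that delivers clients to CCT, at 196.8 and 195 TPM, Hsbp1, which binds Hsf1, at 150.8 and 151.9 TPM, and Bag6 at 150 and 137.9 TPM. The second quantifier had Pfdn5 at 112.3 and 117.3 TPM, below Hsbp1 at 119.8 and 125.8 TPM. The lowest were Bag2, Hsf4 and Bag3. Bag2, an exchange factor of Hsp70, was at 5.15 and 5.26 TPM, and Hsf4, a relative of Hsf1, was at 6.21 and 6.27 TPM. Bag3, the partner of small heat shock proteins, was at 7.83 and 5.87 TPM. Of the CCT subunits outside the members, Tcp1 was at 107.2 and 107 TPM, near Cct7, and Cct6a was at 76.3 and 78.83 TPM. Their place depended on the quantifier. By the second, Cct6a was at 110.3 and 110.7 TPM, Tcp1 at 110.3 and 109.7 TPM and Cct7 at 87.93 and 83.91 TPM.

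Not all of a member's TPM was on transcripts that encode the protein. Of all member TPM, 81.6% in replicate 1 and 84.6% in replicate 2 was on protein coding transcripts, 7.27% and 5.6% on transcripts with a retained intron, 6.85% and 4.86% on processed transcripts without an open reading frame, and 4.28% and 4.95% on transcripts annotated for nonsense-mediated decay. By the second quantifier the coding share of all member TPM was 79.5% and 81.5%. The median member had 91.4% and 95.1% of its TPM on coding transcripts, and the median over all detected genes with a coding transcript was 87.0% and 91.0%.

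The transcript values bear on the highest member, Hspa8. Its TPM was 1137 and 821.7, but the log2 ratio of its counts was only -0.22. Hspa8-201 was at 403.5 and 422.5 TPM in the 2 libraries, while Hspa8-202, also coding, was at 483.7 and 277.1 TPM. The noncoding Hspa8-203 was at 180.6 and 105.5 TPM and Hspa8-204, with a retained intron, at 57.46 and 6.66 TPM. The second quantifier divided the reads differently: it had Hspa8-202 at 184.2 and 90.3 TPM, Hspa8-203 at 299.1 and 212.7 TPM, and the coding Hspa8-205 at 309.9 and 208.6 TPM against 0 and 5.05 TPM in the first table. For Hspa8-204 it turned the direction, with 72.1 and 81.9 TPM. The levels of single Hspa8 transcripts are therefore uncertain, and by this quantifier the coding share of the gene was 65.2% and 64.5% against 78.0% and 85.8%. For Hsp90ab1 the main transcript, Hsp90ab1-201, was at 727.6 and 668.9 TPM, and Hsp90ab1-206, annotated for decay, at 156.8 and 165.5 TPM. The second quantifier had Hsp90ab1-206 at 7.66 and 8.56 TPM and put 461.1 and 432.8 TPM on the coding Hsp90ab1-202, which was at 4.88 and 7.42 TPM in the first table. For Hspa5 both libraries had most TPM on Hspa5-202, at 208.2 and 110.4 TPM, and the coding share was 94.3% and 95.1%, or 87.8% and 89.6% by the second quantifier.

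The 5 members with a mean of 5 TPM or more and the smallest coding share were Dnajc15 (28.6%), Dnajc24 (38.9%), Dnajc7 (46.2%), Dnajc19 (53.0%) and Dnajc11 (53.2%), all of the DNAJC class. In Dnajc15, a mitochondrial protein, the processed transcript Dnajc15-203 was at 22.31 and 15.35 TPM, above the coding Dnajc15-202 at 11.03 and 11.58 TPM. Its coding share was 16.2% and 19.9% by the second quantifier. In Dnajc24, known from diphthamide synthesis, the coding share was 44.4% and 33.6%, but 67.9% and 36.1% by the second quantifier. In Dnajc7 the coding share was 37.4% in replicate 1 and 58.7% in replicate 2, and 43.6% and 69.8% by the second quantifier. Dnajc19, of the mitochondrial import motor, had the retained-intron transcript Dnajc19-205 at 12.16 and 12.77 TPM, but at 18.3 and 8.18 TPM by the second quantifier, so its share is uncertain. Dnajc11, known from the organization of the mitochondrial inner membrane, had a coding share of 53.9% and 52.5%, and 44.6% and 46.9% by the second quantifier. Outside the 5, the retained-intron transcript Cct3-203 was at 35.89 and 38.97 TPM, but at 14.1 and 14.8 TPM by the second quantifier. Cct7-202, annotated for decay, was at 37.61 and 39.56 TPM, and at 26.31 and 31.002 TPM by the second quantifier.

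**Figure D5:**
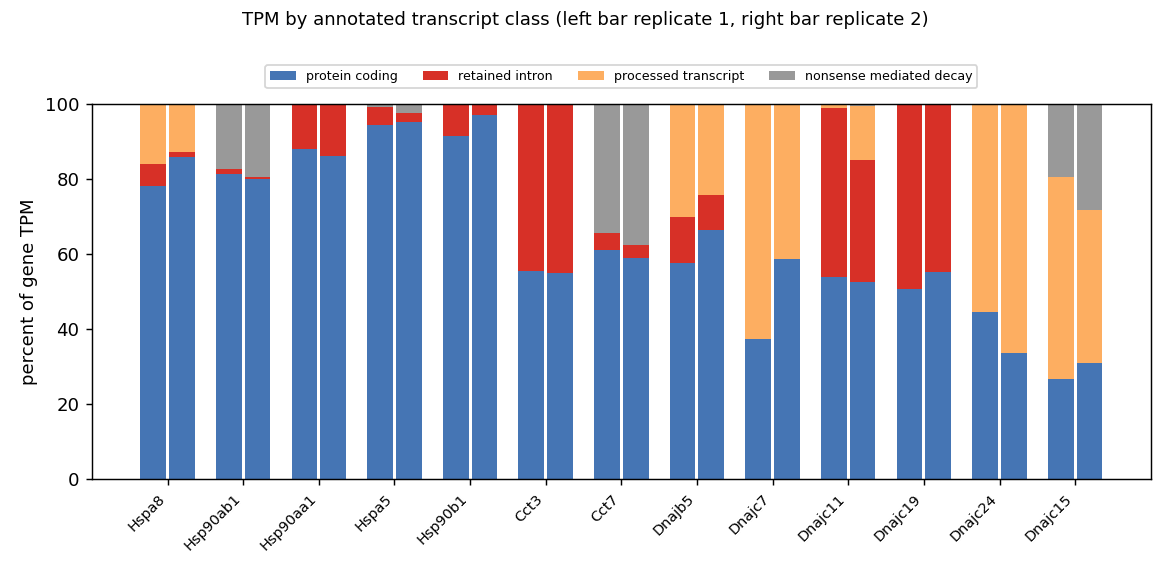
Percent of each gene's TPM in the first transcript table on the 4 annotated transcript classes, with replicate 1 as the left bar and replicate 2 as the right bar of each pair, for 13 members. Hspa5 and Hsp90b1 are at 91.4% protein coding or more, whereas Dnajc15 is at 26.6% and 30.8% and Dnajc7 goes from 37.4% to 58.7%.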

How the data were processed

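Total RNA of the hippocampus of 2 mice was sequenced as 1 strand-specific, rRNA-reduced library per animal. Per the labels, the assembly is mm10. The annotation in the deposited tables is GENCODE M21, with program names not given in the sources used here. In the deposited gene tables, expected counts estimate the reads of a gene after shared reads were divided, without scaling. Deposited TPM values are abundances per transcript length. Deposited percent values say how much of a gene's TPM a transcript holds. The deposited bounds of TPM, a signal with no stated level, were read and support no statement. The authors' second transcript table, with estimated counts and TPM of its own, was summed per gene; 86 annotated genes are not in it. Reads of the CAST/EiJ allele were assigned to the reference annotation, and the effect of this on counts was not tested.

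Expected counts were rounded to whole numbers and tested with edgeR 4.0.16 in R 4.3.3. The settings were CPM of 1 or more in at least 1 library, TMM scaling and trended dispersion. The common dispersion, used only as an alternative, corresponded to a coefficient of variation of 0.191. A chi-square distribution (1 degree of freedom) gave the p of each gene's residual deviance, adjusted over 16123 genes. The 13 members that missed the filter were not tested. A contrast could not be formed with 1 group, and an exact permutation test cannot reach 0.05 with 2 animals. Log2 ratios compare TMM-scaled CPM, replicate 2 over replicate 1, with a prior count of 2. Alternatives were the size factors and dispersion trend of DESeq2 1.42.0 put into the same deviance test, and other scalings, filters, dispersion, quantifier and pseudocount. Protein coding transcripts alone were a further alternative.

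Members and lists were chosen with earlier results of these data known. Named members are all heat-induced and ER-stress-induced ones, the 3 highest and the lowest of each family, those that passed the test, the 3 highest and 3 lowest ratios, the 5 lowest coding shares at 5 TPM or more, and those listed at 0. Other members are named to complete a family. The check of shared 31-base words and the 1.25-fold limit were chosen after the values were seen. Counting intervals (95%) cover counting error only, since without molecular identifiers reads are not independent molecules. Protein sequences were not used here.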

Additional observations from a re-analysis of the deposited data

How the results depend on the processing

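The number of members passing the test between libraries was 1, and it became 0 with spike-in scaling, without the filter on low counts, with a common dispersion and with the second quantifier. It stayed 1 with DESeq2 size factors, total counts, a CPM filter of 5, and DESeq2's size factors and dispersion trend together. It also stayed 1 on protein coding transcripts only, an alternative added after seeing the data. The adjusted p of Hspa5 was then 0.147 with spike-ins, 0.109 without the filter, 0.533 with a common dispersion and 0.204 with the second quantifier, and its log2 ratio was below 0 under each of these. Over all genes the calls were 130, of which 70 were lower in replicate 2, against 341, of which 260 were lower, with a common dispersion.

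The median log2 ratio of the constitutive list reversed to -0.163 with spike-ins, and was 0.047 with total counts, 0.119 with the second quantifier and 0.037 on protein coding transcripts. The heat-induced median was -0.395 with total counts, -0.605 with spike-ins and -0.317 with the second quantifier. The ER-stress-induced median was -0.226, -0.436 and -0.165 under the same alternatives and -0.259 on protein coding transcripts. The cause of these shifts was not tested, beyond the spike-in scale moving all genes by -0.229.

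The median level of the constitutive list was 73.94 TPM with the second quantifier, 59.69 TPM on protein coding transcripts, and 85.32 to 86.09 TPM with either replicate left out. The ER-stress-induced median was 25.7 TPM and 26.8 TPM under the former alternatives. The difference of medians from the constitutive list was -1.424 for the heat-induced and -1.127 for the ER-stress-induced list on protein coding transcripts, with the sign kept. Detected members ranged from 63 at 5 TPM to 69. With 2 units in place of 3, members with a heat shock element went from 4 to 19. Of 45 named members compared, 44 were within 1.5-fold between quantifiers. The exception was Hspb11, at 10.24 TPM and 16.84 TPM with the second. No paired analysis was possible because the 2 libraries form 1 group. The depth limits members with few counts, such as Hspb6 and Dnajb3.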

Other observations

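Among annotated copies of the members, most were at or near 0: of 16 pseudogenes named after a member with the suffix ps, Hsp25-ps1 had the highest mean in the gene table, with 2.28 TPM in replicate 1 and 0.55 TPM in replicate 2. In replicate 2 alone Hspd1-ps3 was higher, at 0.66 TPM, and by the second quantifier Hspa9-ps1 was, at 0.51 and 0.71 TPM. The copy that stands apart is Gm15459, an annotated processed pseudogene of Hspa8 sequence at chr5:5781615-5783555 on the minus strand. It was assigned 7453 and 8731 expected counts, and 287.1 and 249.3 TPM, by the gene table, and 259.5 and 223.8 TPM by the second quantifier. Of its 1911 words of 31 bases, 91.9% also occur in Hspa8. Its log2 ratio between libraries was -0.09, and that of Hspa8 was -0.22. The level of other copies depended on the quantifier. Gm15542, which shares words with Dnaja1, was at 22.73 and 15.64 TPM in the gene table and at 4.15 and 6.22 TPM by the second quantifier. Gm16550, which shares words with Dnajc9, was at 17.07 and 21.57 TPM from 6.26 and 10.67 expected counts, and was listed at 0 by the second quantifier. These genes were chosen after their values were seen.

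Some members start close to a gene on the opposite strand, and how common this is among all genes was not counted. The starts of Cct5 and Fam173b are 48 bases apart, those of Dnajc2 and Psmc2 32, those of Hspb11 and Lrrc42 61, those of Cct3 and Tsacc 117 and those of Dnajb4 and Fubp1 120. The library kit keeps the strand, and use of strand in counting was not stated.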
